A study of Homo sapiens with 3 samples.

Results

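The 8 genes described here encode chemokines, which except for CCL20 draw neutrophils or monocytes: CXCL1, CXCL2, CXCL3, CXCL5, CXCL6, CXCL8, CCL2 and CCL20. They were taken by gene symbol from the array's annotation, which gave 13 probe sets carrying the symbol of 1 of them, out of 54675 probe sets and 19775 genes. No probe set carrying several symbols included one of the 8. The genes were chosen by their log2 ratios on these same arrays, together with their shared function, so every value below is a description of these arrays and carries no test.

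The data are 3 expression arrays, 1 for each stably transfected culture labelled HepG2, a human liver tumour line. One culture carried a vector with the Hsp27 open reading frame (ORF), one a vector expressing a hairpin that targets Hsp27 (shRNA) and one a control vector, and all were grown in DMEM with fetal bovine serum. The sample titles add IRES2 for the first and EGFP for the control, and that of the second says SiRNA where its label says shRNA. Whether each culture was a clone or a pool is not given in the sources used here. Values are log2 MAS5 signals per probe set, and a signal below the pooled median (a log2 signal of 5.93, the floor) was raised to it before a log2 ratio was taken, because differences between weak signals are unreliable. Each group has a single array, so replicate error is unknown and precision is limited by the number of arrays. The only error given is a noise SD, the scatter of the log2 ratio after the floor among probe sets that read one gene at similar signal. It leaves out all variation between cultures, and it can be too small near the floor, where readings were raised to it.

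The labels and the measured transcripts did not match in 2 respects. HSPB1, which encodes Hsp27, had log2 signals of 13.11 with ORF, 13.03 with shRNA and 13.25 with control, so the groups are named below by their labels only and every direction rests on those labels. Hepatocyte markers were near background: 1 of 9 had a mean over the 3 arrays above the floor, and the highest reading of any was 6.51. Leukocyte markers were also low, with 0 of 12 above the floor on average. PTPRC, CD14 and the neutrophil receptor CSF3R were below the floor on all 3 arrays. The T cell gene CD3E, at 6.72 on ORF, 5.79 on shRNA and 4.69 on control, was 1 of 2 that exceeded it on any array. The other, the myeloid gene ITGAM, was lowest on ORF, at 5.28, against 6.18 on shRNA and 5.98 on control. The summed linear signal of the 12 leukocyte markers was 301.8 on the array labelled ORF, 265.3 on shRNA and 304.4 on control, and their part in the chemokine values was not tested. In bulk RNA, fewer cells of a type and less RNA per cell cannot be told apart.

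Chemokines are small secreted proteins that guide leukocytes along a concentration gradient through G protein-coupled receptors. CXCL1, CXCL2, CXCL3, CXCL5, CXCL6 and CXCL8 carry a Glu-Leu-Arg motif before their paired cysteines. They recruit neutrophils through CXCR2, some of them also through CXCR1, and lie together in a cluster on chromosome 4. CCL2 recruits monocytes through CCR2, and CCL20 recruits CCR6-bearing lymphocytes and dendritic cells. In epithelial and tumour cells many of these genes are induced by interleukin 1 and TNF through NF-kB, and their short-lived transcripts are further controlled by decay factors that bind AU-rich elements.

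All 6 CXC genes share one stretch of sequence upstream of their start, GGAATTTCC, a match to the DNA site of NF-kB (kB site). The sequences are shown because this shared site is one feature the CXC genes have in common outside the array values. The 250 bases before each RefSeq start (GRCh38.p14) are given on the gene's strand. Capitals mark matches to GGAATTTCC, to the kB consensus motif, which overlaps it, to the AP-1 motif TGANTCA or to the TATA box motif TATAAA, each searched on both strands. CXCL8 (chr4:73740319-73740568), CXCL1 (chr4:73869143-73869392) and CXCL6 (chr4:73836428-73836677) are on the plus strand, CXCL2 (chr4:74099196-74099445) and CXCL3 (chr4:74038690-74038939) on the minus strand.
CXCL8: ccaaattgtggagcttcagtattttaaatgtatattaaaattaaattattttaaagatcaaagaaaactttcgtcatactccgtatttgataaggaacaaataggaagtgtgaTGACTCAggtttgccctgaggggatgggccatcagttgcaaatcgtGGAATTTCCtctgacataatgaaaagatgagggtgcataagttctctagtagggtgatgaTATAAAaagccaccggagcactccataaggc
CXCL1: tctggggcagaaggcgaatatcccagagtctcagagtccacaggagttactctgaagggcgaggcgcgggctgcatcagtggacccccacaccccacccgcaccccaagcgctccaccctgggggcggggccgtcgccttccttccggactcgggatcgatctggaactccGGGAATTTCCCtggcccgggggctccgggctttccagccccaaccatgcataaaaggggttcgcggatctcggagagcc
CXCL2: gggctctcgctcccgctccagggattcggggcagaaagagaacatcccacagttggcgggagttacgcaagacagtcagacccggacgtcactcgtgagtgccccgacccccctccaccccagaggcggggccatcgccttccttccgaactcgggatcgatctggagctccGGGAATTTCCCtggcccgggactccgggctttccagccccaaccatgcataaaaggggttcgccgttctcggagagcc
CXCL3: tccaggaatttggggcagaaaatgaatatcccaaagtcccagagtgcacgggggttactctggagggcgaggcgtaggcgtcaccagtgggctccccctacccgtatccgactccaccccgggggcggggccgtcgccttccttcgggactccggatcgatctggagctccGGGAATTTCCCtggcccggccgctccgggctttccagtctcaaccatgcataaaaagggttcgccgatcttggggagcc
CXCL6: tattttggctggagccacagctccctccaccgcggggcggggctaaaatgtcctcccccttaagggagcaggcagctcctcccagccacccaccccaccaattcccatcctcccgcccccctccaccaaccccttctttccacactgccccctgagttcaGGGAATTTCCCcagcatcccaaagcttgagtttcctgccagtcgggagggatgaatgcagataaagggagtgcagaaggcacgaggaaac

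GGAATTTCC was present in the upstream windows of CXCL1, CXCL2, CXCL3, CXCL5, CXCL6 and CXCL8, that is 6 of the 7 listed genes with an entry (CCL2 had none), and in 0.413% of all 35116 windows of the same length. The motif was picked after the sequences had been read. The match began 91 bases before the start in CXCL8, 78 in CXCL1 and CXCL3, 77 in CXCL2, 90 in CXCL5 and 89 in CXCL6. In 5 of these 6, all but CXCL8, the match was flanked so that it also met the kB consensus, which 9.96% of all windows held. CCL20 lacked GGAATTTCC but met the kB consensus through a minus-strand match, GGAAAACCCC as read on the gene's strand, 79 to 70 bases before its start. The AP-1 motif was found only in CXCL8, and occurred in 6.57% of all windows. TATAAA was found in CXCL8 and CCL20, and occurred in 10.7% of all windows. The windows of CXCL1 and CXCL3 were identical at 81.4% of aligned positions and those of CXCL1 and CXCL2 at 70.4%, against 42.6% for CXCL1 and CXCL8. CXCL5 and CXCL6, at 85.3%, were the closest pair. CXCL1, CXCL2 and CXCL3 are close relatives, so a probe set for one may also read the others, and their values are uncertain to that extent.

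Signals of 5 of the 8 chemokine genes exceeded the floor on 1 array or more: CXCL8, CXCL1, CXCL2, CXCL3 and CCL2. In their brightest probe sets, the 4 CXC genes among them read highest on ORF, intermediate on shRNA and lowest on control. For CXCL3 the steps were within the noise, and the other probe sets of CXCL8 and CXCL2 did not all keep this order. CCL2 went the other way from these 4 genes and was lowest on ORF. CXCL5, CXCL6 and CCL20 were below the floor on all 3 arrays, so no difference was measurable for them.

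**Figure D1:**
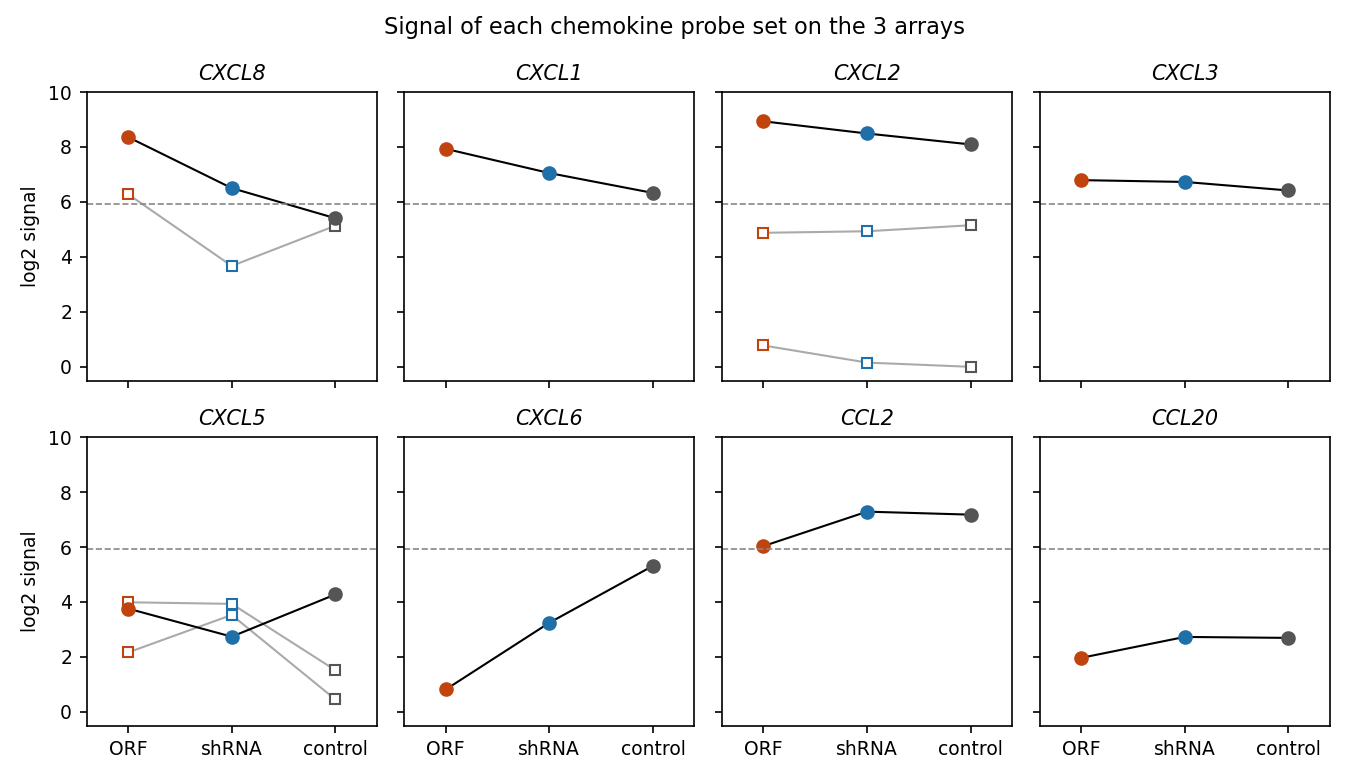
Log2 signal of every probe set (13) of the 8 chemokine genes on the arrays labelled ORF, shRNA and control, with 1 array per label. Filled circles are the brightest probe set of each gene by mean, open squares are other probe sets, and the dashed line is the floor at 5.93. CXCL8, CXCL1, CXCL2 and CXCL3 step down from ORF to shRNA to control in the filled circles, CCL2 is lowest on ORF, and CXCL5, CXCL6 and CCL20 stay below the line.

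CXCL8 (interleukin 8), the main neutrophil attractant of this group, showed the widest difference. Its brighter probe set, 202859_x_at, read 8.36 on ORF, 6.50 on shRNA and 5.41 on control on the log2 scale (linear signals of 328.5, 90.7 and 42.4). The control array lay below the floor, so the floor sets the size of the ratios to control. CXCL8 was 5.40-fold higher on ORF than on control after the floor (log2 ratio 2.43, noise SD 0.41), and 7.74-fold higher on the unfloored signals. On shRNA it was 1.49-fold higher than control (log2 ratio 0.58, noise SD 0.42), and ORF exceeded shRNA 3.62-fold (log2 ratio 1.86, noise SD 0.41). The second CXCL8 probe set, 211506_s_at, read 6.28 on ORF, 3.67 on shRNA and 5.13 on control. Both probe sets thus placed ORF highest, but they disagreed on the order of shRNA and control, and 211506_s_at was below the floor on both of those arrays. Taking the median of both probe sets lowered the ORF log2 ratio to control to 1.39 and the ratio to shRNA to 1.11. With the floor raised to the 75th percentile of all probe sets (8.63), every ratio of CXCL8, CXCL1, CXCL3 and CCL2 became 0.

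CXCL1, first described as melanoma growth-stimulating activity, followed the order of the brighter CXCL8 probe set on its single probe set. The log2 signal was 7.93 on ORF, 7.05 on shRNA and 6.33 on control, all above the floor. The ORF array was 3.04-fold over control (log2 ratio 1.60, noise SD 0.39) and 1.84-fold over shRNA (log2 ratio 0.88, noise SD 0.38). The array labelled shRNA was 1.65-fold over control (log2 ratio 0.72, noise SD 0.40). No 2 arrays gave the same CXCL1 reading within 1 noise SD.

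CXCL2, a close relative of CXCL1, showed smaller steps. Its probe set 209774_x_at read 8.93 on ORF, 8.49 on shRNA and 8.09 on control. This was 1.79-fold for ORF against control (log2 ratio 0.84, noise SD 0.24), 1.32-fold for shRNA against control (log2 ratio 0.40, noise SD 0.26) and 1.36-fold for ORF against shRNA (log2 ratio 0.44, noise SD 0.22). The other CXCL2 probe sets, 1569203_at and 230101_at, were below the floor on every array, and 230101_at was highest on control, at 5.15 against 4.88 on ORF. With the median over the 3 probe sets every CXCL2 ratio was 0.

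CXCL3, the third close relative, differed by less than the noise. It read 6.79 on ORF, 6.73 on shRNA and 6.42 on control. Relative to control its log2 ratio was 0.38 on ORF (noise SD 0.43) and 0.31 on shRNA (noise SD 0.42), and ORF exceeded shRNA by 0.07 (noise SD 0.44). The order of the 3 arrays therefore cannot be read from CXCL3 alone.

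CCL2 (monocyte chemoattractant protein 1) was the listed gene that was lower with the ORF vector. Its probe set 216598_s_at read 6.03 on ORF, 7.29 on shRNA and 7.18 on control. The array labelled ORF was 2.21-fold below control (log2 ratio −1.14, noise SD 0.41) and 2.38-fold below shRNA (log2 ratio −1.25, noise SD 0.41). The arrays labelled shRNA and control differed by a log2 ratio of 0.11 (noise SD 0.42), less than the noise. The ORF reading was just above the floor. Relative to control, CCL2 thus lay on the opposite side from CXCL8, CXCL1 and CXCL2 on the array labelled ORF.

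**Figure D2:**
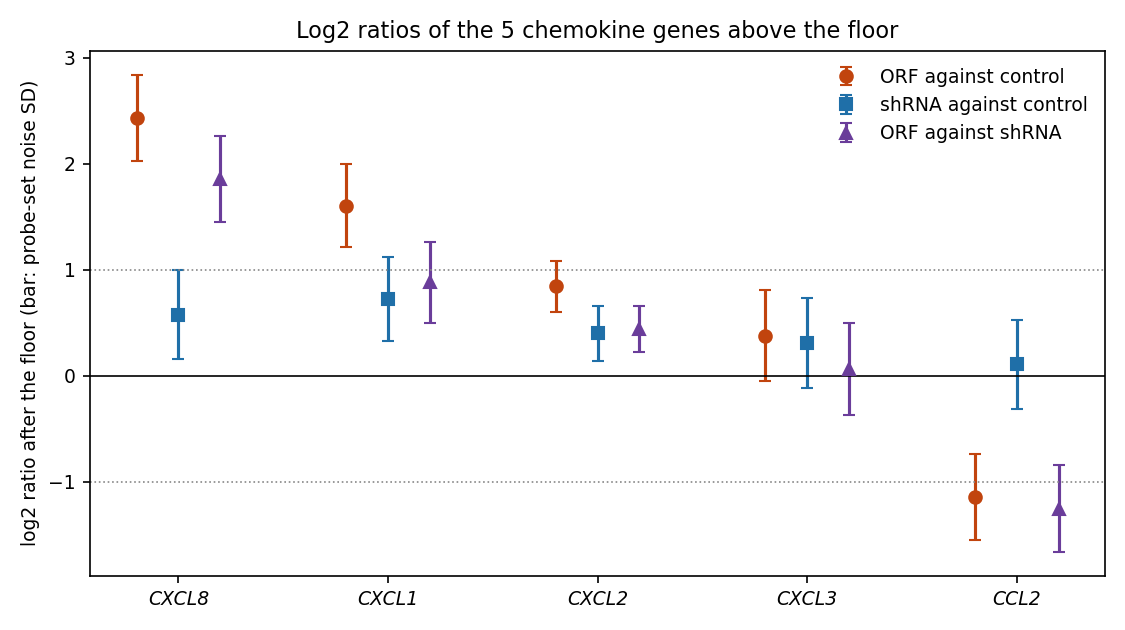
Log2 ratios after the floor for the 5 measurable chemokine genes, for ORF against control (circles), shRNA against control (squares) and ORF against shRNA (triangles). Bars are the probe-set noise SD, not a replicate error, and dotted lines mark 2-fold. CXCL8 and CXCL1 exceed 2-fold upward for ORF against control, and CCL2 exceeds it downward.

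The 3 unmeasurable genes were far from the floor on most arrays. CXCL6 (granulocyte chemotactic protein 2) read 0.82 on ORF, 3.25 on shRNA and 5.32 on control. CCL20 read 1.97 on ORF, 2.73 on shRNA and 2.69 on control. The 3 CXCL5 probe sets (epithelial neutrophil-activating peptide 78) read between 0.45 and 4.27, and they did not share an order: control was highest on 214974_x_at, shRNA on 207852_at and ORF on 215101_s_at. On the log2 scale such low readings spread widely, so the unfloored ratio of CXCL6 for ORF against control, −4.50, rests on signals that are all below the floor. CXCL5 and CXCL6 share the upstream kB site with the genes that were measured.

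Across the 8 genes, CXCL8, CXCL1 and CXCL2 (3) reached 1.5-fold upward on ORF against control and CCL2 (1) downward, where 1.95% and 1.81% of all 19775 genes were. At 2-fold the counts were 2 (CXCL8 and CXCL1) and 1 (CCL2), beside 0.42% and 0.319% of all genes. Because the list was drawn up from these ratios, nothing is read from these shares. Weak genes pass a fold more often: between the floor and the 75th percentile, where the brighter array of CXCL8, CXCL1 and CCL2 lies, 6.52% of genes were past 1.5-fold upward and 6.59% downward, and 1.38% and 1.08% were past 2-fold. For shRNA against control, 1 gene (CXCL1) was at least 1.5-fold higher and 0 lower, beside 2.3% and 2.11% of all genes; at 2-fold there were 0 and 0, beside 0.43% and 0.308%. For ORF against shRNA, CXCL8 and CXCL1 were at least 1.5-fold higher and CCL2 lower, beside 1.69% and 1.72% of all genes. At 2-fold only CXCL8 was higher and CCL2 lower, beside 0.187% and 0.293%. Between the floor and the 75th percentile, the shares for ORF against shRNA were 5.75% and 6.1% at 1.5-fold and 0.765% and 1.04% at 2-fold. For shRNA against control they were 7.04% and 6.95% at 1.5-fold. The median log2 ratio over the 8 genes, those at the floor counted as 0, was 0.19 on ORF and 0.21 on shRNA relative to control and 0.03 between the vectors, beside 0 over all genes in each. Both comparisons with control share 1 control array, so that its deviations enter both. The order ORF above shRNA above control held for 3 of the 4 listed genes above the floor on all 3 arrays (CXCL1, CXCL2 and CXCL3, the last within the noise), and for 15.1% of all 11261 such genes.

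The CXC members of the list lie in one cluster. In RefSeq's order along chromosome 4 it runs CXCL8, CXCL6, PF4V1, CXCL1, PF4, PPBP, CXCL5, CXCL3 and CXCL2, and the higher signals on ORF were at CXCL8, CXCL1 and CXCL2, which are not adjacent. The platelet chemokine genes between them, PF4V1, PF4 and PPBP, were below the floor on all arrays. MTHFD2L, a mitochondrial folate enzyme gene next to CXCL2, read 9.75, 9.56 and 9.71 on ORF, shRNA and control (log2 ratio for ORF against control 0.04, noise SD 0.15). EREG (epiregulin, an EGF receptor ligand), further along, read 10.34, 10.24 and 9.82 (0.52, noise SD 0.15). At the other end RASSF6, a RAS-association domain gene, read 7.25, 7.51 and 6.91 (0.34, noise SD 0.35). The genes below the floor between the measured chemokines gave no difference that could be read.

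**Figure D3:**
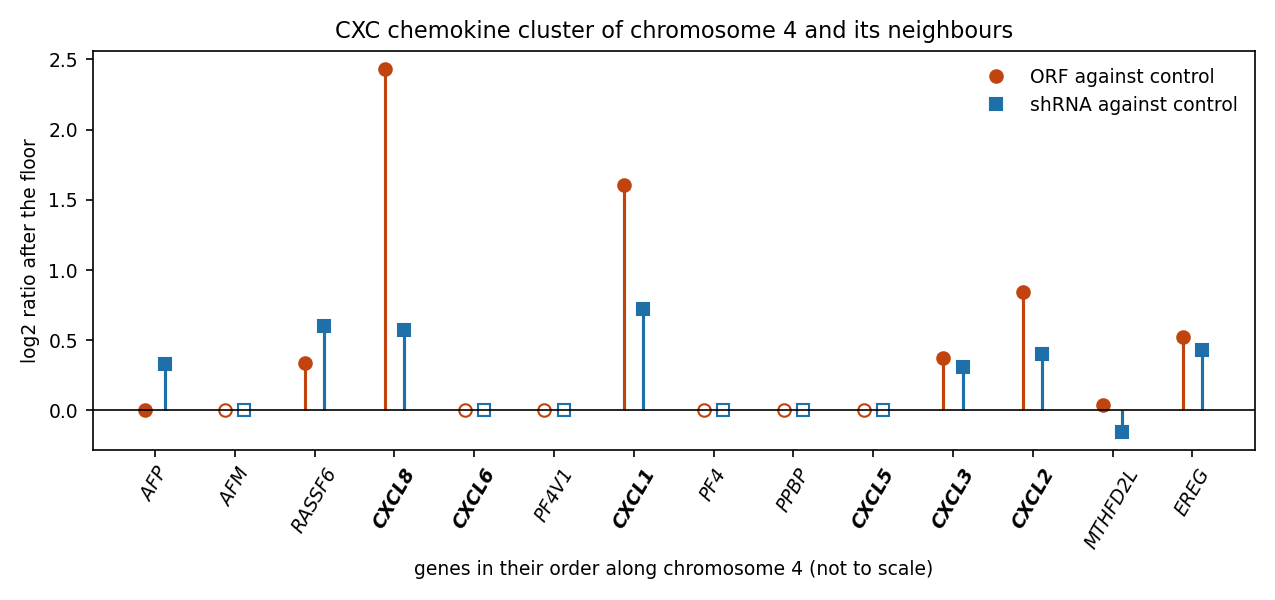
Log2 ratio after the floor for ORF against control (circles) and shRNA against control (squares), for genes in their order along chromosome 4, with the listed chemokines in bold. Open symbols are genes below the floor on all 3 arrays, whose ratio is 0 by construction. CXCL8 and CXCL1 stand highest for ORF, and MTHFD2L next to CXCL2 is near 0.

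The other chemokines were mostly undetected, and those that were measured had different patterns. Of the 12 other CXC and CX3C chemokines on the array, 3 exceeded the floor on any array. CXCL16, a transmembrane chemokine that binds CXCR6, read 8.64 on ORF, 8.73 on shRNA and 7.69 on control (1.93-fold and 2.05-fold over control). Its log2 ratio between ORF and shRNA was −0.09 (noise SD 0.24), so it did not share the step between these arrays seen in CXCL8. CXCL10 and CXCL11, interferon-induced ligands of CXCR3 that were singled out after their values were seen, were above the floor only on shRNA, at 6.62 and 6.81. Of the 19 other CC and XC chemokines, CCL5 and CCL26 exceeded the floor on any array. CCL5 (RANTES), singled out in the same way, read 6.19 on ORF, 7.59 on shRNA and 5.65 on control, so its highest array was shRNA (log2 ratio to control 1.67, noise SD 0.42). CCL26 (eotaxin-3) read between 7.71 on control and 8.10 on ORF. For ORF against shRNA, CXCL10 (−0.69), CXCL11 (−0.89) and CCL5 (−1.40) were thus on the side of CCL2, opposite to CXCL8 and CXCL1.

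**Figure D4:**
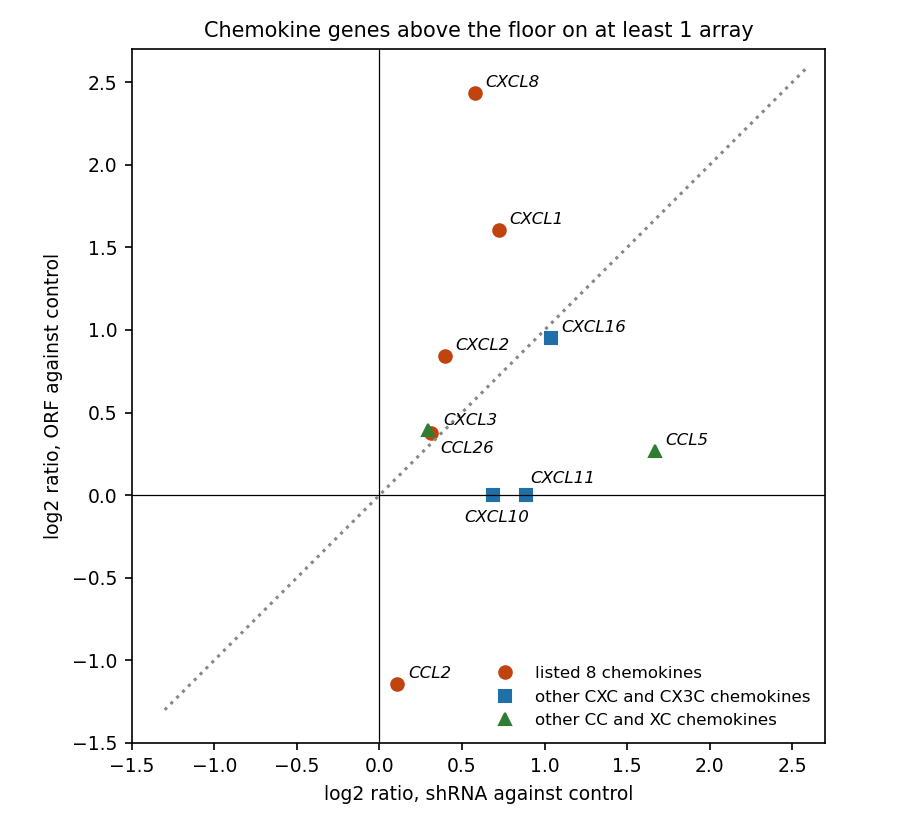
Log2 ratio after the floor for shRNA against control (horizontal) and ORF against control (vertical) for every chemokine gene that exceeded the floor on any array; the dotted line marks equal ratios. Both ratios share the control array. CXCL8, CXCL1 and CXCL2 lie above the line, CCL5, CXCL10, CXCL11 and CCL2 below it, and CXCL16 close to it.

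The receptors for the listed chemokines were below the floor in these cells. CXCR1 and CXCR2, the receptors of the neutrophil attractants, read at most 1.78 and 2.68 on any array. CCR2, the receptor of CCL2, read at most 4.37 and CCR6, the receptor of CCL20, at most 4.04. Of 21 receptors and scavengers on the array, 18 were below the floor on all arrays. CXCR4, the CXCL12 receptor, read 11.46 on ORF, 10.82 on shRNA and 11.04 on control, and ACKR3, a CXCL12 scavenger, read 9.86, 10.27 and 9.76. CXCR3 was above the floor only on control, at 6.75.

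Inducers of these chemokines were measured on the same arrays. Of 20 inducing cytokines and receptors on the array, 2 were past 1.5-fold upward on ORF against control and 0 downward, beside the 1.95% and 1.81% of all genes. They were IL1A and IL1R1, singled out after their values were seen. IL1A (interleukin 1 alpha) read 6.72 on ORF, 5.85 on shRNA and 5.18 on control. Only ORF was above the floor, so shRNA and control could not be ordered. IL1R1, the signalling receptor, read 8.47, 8.38 and 7.54, high with both vectors (log2 ratios to control 0.93 and 0.84, noise SD 0.27 and 0.31). IL1B read 7.01, 6.91 and 6.87, differing by less than the noise, and TNF was below the floor on all arrays. On shRNA against control the genes at least 1.5-fold higher were LTB (lymphotoxin beta), IL1R1 and IL1RAP (the interleukin 1 receptor accessory protein), 3 of 20, and 0 were lower, beside 2.3% and 2.11% of all genes. IL1RAP read 6.23 on ORF, 7.04 on shRNA and 6.41 on control, and the inhibitors IL1RN and IL1R2 were below the floor on all arrays.

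Of 13 transcription factors and inhibitors that act on these genes, 2 were past 1.5-fold upward on ORF against control and 0 downward, beside 1.95% and 1.81% of all genes. On shRNA against control 0 reached 1.5-fold either way, beside 2.3% and 2.11%. NFKBIZ (an atypical nuclear IkB needed for a subset of NF-kB targets) read 10.62 on ORF, 9.96 on shRNA and 9.85 on control (log2 ratio to control 0.77 on ORF, noise SD 0.15, and 0.11 on shRNA, noise SD 0.20). NFKB2 (p100/p52) read 8.61, 8.20 and 7.90 (0.71, noise SD 0.26). RELA read 11.27, 11.32 and 11.31, and NFKB1 10.64, 10.77 and 10.54. NFKBIZ is itself one of the genes that hold GGAATTTCC upstream.

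Most genes that hold the same upstream site were not past 1.5-fold. The share past it was mostly larger than among all genes with an upstream entry, but it rests on small counts not matched for signal. On the array, 78 genes held GGAATTTCC in the window, and 72 of them were not on the list of 8. Of these 72, 4 were past 1.5-fold upward on ORF against control (5.56%) and 4 downward (5.56%), beside 1.83% and 1.7% of the 15384 genes on the array with an upstream entry. The higher were CGA, DUSP6 (an ERK phosphatase), MAP3K8 (a kinase upstream of ERK) and NFKBIZ, singled out after their values were seen. On shRNA against control 8 of the 72 were higher (11.1%) and 1 lower (1.39%), beside 2.15% and 2.1%. The interferon-induced CXCL10 and CXCL11 were among these 8, so they hold the same letters as CXCL8. For ORF against shRNA 2 of the 72 were higher (2.78%) and 5 lower (6.94%), beside 1.65% and 1.53%. The median log2 ratio to control of the 53 above the floor was 0.06 for ORF and 0.07 for shRNA. Over the 10278 genes above the floor with an upstream entry it was 0 for ORF and −0.009 for shRNA.

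Factors that act on the stability of these transcripts were also read. Of 7 on the array, 0 were past 1.5-fold in either direction in any of the 3 comparisons, beside all-gene shares of 1.69% to 2.3% in each direction. ZFP36 (tristetraprolin), which promotes decay of AU-rich transcripts, read 9.37 on ORF, 9.40 on shRNA and 9.46 on control. MAPKAPK2, the kinase that inactivates it and phosphorylates Hsp27, read 10.36, 10.53 and 10.48. ZFP36L1, a second decay factor, was lowest on control, at 11.01 on ORF, 10.93 on shRNA and 10.54 on control (log2 ratio for ORF 0.47, noise SD 0.13).

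The genes whose ratios to control lay nearest to those of CXCL8 were drawn from the 8181 genes that reached the 75th percentile (8.63) on at least 1 array. Likeness was the distance between the pairs of log2 ratios to control, so it rests on 3 arrays. In order they were PTGS2, PI3, SORBS2, SERPINE2, TMEM154, IL6, IL11 and RAB31. PTGS2 (cyclooxygenase 2) had log2 ratios of 1.89 for ORF and 0.90 for shRNA, PI3 (elafin) 1.86 and 1.11, and IL6 1.58 and 1.41. No listed chemokine was among these 8. Only 1 listed chemokine, CXCL2, reached the 75th percentile, so the others, CXCL1 among them, were not searched and their likeness to CXCL8 was not assessed. The ratios of CXCL8 to control depend on the floor, because its control reading was below it. For CCL20, below the floor on every array, no such genes were sought.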

How the data were processed

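Expression was measured in 3 samples, 1 array per vector label. The authors deposited one log2 signal for each probe set, made with MAS5 per the submitters' processing notes; its scaling target is not stated in the sources used, and the log2 scale was read from the values. GEO's platform annotation gave the symbols (41097 probe sets with 1), and the gene identifiers of all 13 chemokine probe sets matched RefSeq (GRCh38.p14). Arrays were scaled to equal 2% trimmed means, and signals under the pooled median were raised to it (the floor). A gene was represented by its probe set of highest mean signal. The noise SD came from 6768 probe-set pairs, each pair reading one gene, in 20 bins of mean signal. No test was possible with 1 array per group. The ratio step was tested on simulated data, with changes placed only in genes well above the floor. That check does not cover genes as weak as CXCL8, CXCL1, CXCL3 and CCL2. The listed genes, motifs and 10 other lists were chosen with earlier results of these data known. Other genes are named where bright and at least 1.5-fold from control, at most 4 per list; CXCL16, NFKBIZ, COL1A1 and DCN met this rule. All others (receptors, cluster neighbours, pathway members) were named for their role or after their values were seen. Alternatives were quantile, loess and median scaling, no rescaling, other floors, other probe-set rules and a 3-fold threshold. Analyses used Python 3.11.15 with pandas 2.3.3 and statsmodels 0.14.6.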

Additional observations from a re-analysis of the deposited data

How the results depend on the processing

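No log2 ratio of CXCL8, CXCL1, CXCL2, CXCL3 or CCL2 changed sign under any alternative run, and some became 0. Only the brightest probe set of each gene was read without the floor, so a reversal in a weaker, unfloored one could not appear. Unfloored, 211506_s_at (CXCL8) gave −1.46 for shRNA relative to control, opposite to 1.10 on 202859_x_at, but 1.15 for ORF, the same sign. For ORF relative to control, 230101_at (CXCL2) gave −0.27, while 1569203_at gave 0.78 and 209774_x_at 0.84. The counts past 1.5-fold and 2-fold stayed within 1.5 times of their reported values under quantile, loess and median scaling, without rescaling and with the median over probe sets. With the floor at the 75th percentile, every nonzero count fell to 0 in all 3 comparisons. Without probe sets ending in _x_at or _s_at, which removes CXCL8 and CCL2 altogether, CXCL1 alone was left past 1.5-fold (1 gene higher and 0 lower) on ORF against control and on ORF against shRNA; at 2-fold it was 1 and 0 against control and 0 and 0 against shRNA. With no floor, genes below it entered the counts. On ORF against control 3 genes were past 1.5-fold downward and 2 past 2-fold, with CXCL6 beside CCL2. On shRNA against control 2 were past 1.5-fold upward and 1 past 2-fold upward, and 2 (CXCL5 and CXCL6) past both downward. On ORF against shRNA 2 were past 2-fold upward, 3 past 1.5-fold downward and 2 past 2-fold downward. At 3-fold, 0 genes were lower in any comparison. The brightest readings of CXCL8, CXCL1, CXCL3 and CCL2 lie between the floor and the 75th percentile, where probe-set noise is larger than for bright genes. No paired analysis was possible because each group had 1 array.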

Other observations

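Fibroblast and endothelial markers were checked beside the chemokines, since both cell types can secrete them. Of 8 fibroblast markers, 5 had a mean signal above the floor. The matrix genes LUM (lumican), COL1A1 (collagen I) and DCN (decorin) were the bright ones. LUM read 13.03 on ORF, 13.35 on shRNA and 13.30 on control, COL1A1 9.97, 10.62 and 9.82, and DCN 9.67, 9.23 and 10.14. FAP (fibroblast activation protein) read 8.51 on ORF, 7.96 on shRNA and 8.35 on control, and PDGFRB 6.02, 5.53 and 4.97. COL3A1 read 7.20 on ORF, 7.37 on shRNA and 7.73 on control. COL1A2 was above the floor only on control, at 6.02, and THY1 was below it on all 3 arrays. The markers thus did not share an order. The summed linear signal of the 8 was 10782 on ORF, 13168 on shRNA and 12792 on control, most of it from LUM. Of 5 endothelial markers, 2 had a mean above the floor. PECAM1 read 6.80 on ORF, 6.71 on shRNA and 6.45 on control, differing by less than the noise (log2 ratio for ORF against control 0.36, noise SD 0.43). CDH5 read 5.79, 6.63 and 6.72, with ORF below the floor (log2 ratio for ORF against control −0.79, noise SD 0.41). The summed linear signal of the 5 was 183.7, 259.6 and 230.0 in the same order. The part of either cell type in the chemokine values was not tested.

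One gene near CCL20, singled out after its values were seen, was measurable where CCL20 was not. PID1, a regulator of insulin signalling and the third protein-coding gene after CCL20 on chromosome 2, read 8.21 on ORF, 7.32 on shRNA and 6.07 on control (log2 ratios to control 2.14 and 1.25, noise SD 0.35 and 0.38). Its order was that of CXCL1 and of the brighter CXCL8 probe set.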
